A study of Mus musculus with 2 samples.

Results

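The distal part of chromosome 1 was examined as a far contact partner of the proximal part of the same chromosome in mouse embryonic stem (ES) cells. The members were the Hi-C read pairs with both ends on chromosome 1, the lower end between 3 and 90.75 Mb and the upper end beyond 90.75 Mb (assembly GRCm38). They numbered 595746 of 3445388 chromosome 1 pairs with the lower end in the proximal part in wild-type cells, and 377768 of 2634001 such pairs in *Lin28a* knockout cells. The border at 90.75 Mb is not a biological one. The lists run in the order of the first end, and the wild-type list held here ends at position 90862049, so pairs that reach from the proximal part into the distal part are complete in both libraries while pairs within the distal part are not analysed here. Upper ends were counted in 104 whole bins of 1 Mb, from 91 to 195 Mb, against 87 lower bins from 3 to 90 Mb. These bins held 570065 wild-type pairs (95.7%) and 359706 knockout pairs (95.2%).

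In Hi-C, DNA segments that are neighbours in the fixed nucleus are ligated and sequenced from both sides, so each read pair is 1 contact. The ES cells of both groups grew for 2 days with mouse embryonic fibroblast feeder cells on gelatin in LIF/2i medium, which holds ES cells in the naive pluripotent state. The groups differ, as labelled, in *Lin28a* alone, which encodes an RNA-binding protein of pluripotent cells. The labels give neither the parent line nor the number of clones, and the share of feeder cells among the sequenced cells is not given. Per the labels each group had 2 replicates, but the lists used here are 1 per group and do not tell replicates apart. Each group is therefore 1 library, no test between groups was made, and the 95% intervals cover counting error only. Read names showed 2 sequencing runs per library, with 543572 and 52174 of the far pairs in wild-type cells and 361574 and 16194 in knockout cells. *Lin28a* lies on another chromosome, so these pairs cannot check the label, and contact pairs carry no expression of marker genes.

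Contacts along a chromosome fall with distance, since positions near to each other on the fibre meet more often. Over long distances the chromosome still folds back on itself, and gene-rich, transcribed chromatin (the A compartment) meets other gene-rich chromatin more often than distance alone gives, as does gene-poor chromatin, much of it at the nuclear lamina (the B compartment), with its own kind. At the largest distances contacts approach the level between different chromosomes (trans). A distal bin can therefore differ between libraries through the distance law that all pairs share, and through a local departure from it. Both are given here in turn.

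The regions that depart most differ in their genes. Promoters of 7 genes are printed to show what lies in them, with each CG dinucleotide in capitals, since CG-dense promoters mark many genes that are active in most cells. *Nvl*, *Lbr* and *Parp1* lie in the bins with the highest ratios of knockout to wild-type, *Mdm4* in the raised stretch from 131 to 136 Mb, *Dpp10* in the bin with the lowest ratio, *Cdc73* in the lowered stretch from 141 to 146 Mb, and *Fcer1a* in a gene-dense bin whose ratio was near 1. Each run is the 250 bases before the RefSeq start, on the strand of the gene (GRCm38.p6).
Nvl, chr1:181144205-181144454, minus strand: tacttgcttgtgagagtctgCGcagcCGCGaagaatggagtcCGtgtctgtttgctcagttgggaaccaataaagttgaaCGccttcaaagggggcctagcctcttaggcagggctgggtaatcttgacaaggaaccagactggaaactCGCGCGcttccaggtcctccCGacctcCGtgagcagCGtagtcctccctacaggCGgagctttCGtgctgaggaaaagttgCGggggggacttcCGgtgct
Lbr, chr1:181842402-181842651, minus strand: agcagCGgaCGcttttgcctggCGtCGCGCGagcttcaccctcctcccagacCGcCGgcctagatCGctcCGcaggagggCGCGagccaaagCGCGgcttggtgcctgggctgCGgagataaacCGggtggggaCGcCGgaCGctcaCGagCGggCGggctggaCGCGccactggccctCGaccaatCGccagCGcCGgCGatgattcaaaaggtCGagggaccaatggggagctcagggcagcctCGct
Parp1, chr1:180568641-180568890, plus strand: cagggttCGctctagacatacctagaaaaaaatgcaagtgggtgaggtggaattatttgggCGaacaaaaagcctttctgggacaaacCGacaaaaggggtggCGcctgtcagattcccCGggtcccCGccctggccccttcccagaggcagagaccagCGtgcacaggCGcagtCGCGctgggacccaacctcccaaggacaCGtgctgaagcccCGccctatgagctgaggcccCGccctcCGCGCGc
Mdm4, chr1:133030588-133030837, minus strand: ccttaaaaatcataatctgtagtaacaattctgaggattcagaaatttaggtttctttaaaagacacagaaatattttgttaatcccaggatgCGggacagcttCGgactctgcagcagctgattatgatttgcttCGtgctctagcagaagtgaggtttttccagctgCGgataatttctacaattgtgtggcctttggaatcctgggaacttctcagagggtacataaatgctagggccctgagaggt
Dpp10, chr1:124045560-124045809, minus strand: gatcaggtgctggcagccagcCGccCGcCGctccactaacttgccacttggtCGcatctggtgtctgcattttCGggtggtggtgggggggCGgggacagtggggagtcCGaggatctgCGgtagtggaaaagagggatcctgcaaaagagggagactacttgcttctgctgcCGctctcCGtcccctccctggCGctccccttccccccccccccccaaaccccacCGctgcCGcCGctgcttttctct
Cdc73, chr1:143702894-143703143, minus strand: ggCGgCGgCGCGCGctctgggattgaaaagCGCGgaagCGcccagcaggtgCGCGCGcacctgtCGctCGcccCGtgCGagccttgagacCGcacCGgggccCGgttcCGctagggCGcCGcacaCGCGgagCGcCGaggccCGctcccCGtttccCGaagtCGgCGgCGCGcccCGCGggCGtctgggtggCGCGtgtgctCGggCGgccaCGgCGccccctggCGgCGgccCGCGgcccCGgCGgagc
Fcer1a, chr1:173227230-173227479, minus strand: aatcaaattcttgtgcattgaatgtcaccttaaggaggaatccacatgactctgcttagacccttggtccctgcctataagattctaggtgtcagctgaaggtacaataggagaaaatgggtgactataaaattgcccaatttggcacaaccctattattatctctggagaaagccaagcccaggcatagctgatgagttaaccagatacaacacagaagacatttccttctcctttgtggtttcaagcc

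The promoters of *Cdc73* and *Lbr* held 47 and 31 CG dinucleotides, those of *Parp1*, *Nvl* and *Dpp10* 16, 15 and 14, that of *Mdm4* 4 and that of *Fcer1a* 0. Of 688 protein-coding genes in the distal bins, 497 had a RefSeq promoter within 1 kb of the GENCODE start. At least 10 CG were present in 54.1% of these 497 promoters, in 58.2% of 201 promoters from the bins higher in knockout cells and in 58.3% of 12 from the bins that were lower. The bins that departed upward and downward thus differed in how many promoters they held, and the share of CG-dense promoters was similar in both, as far as 12 promoters can show.

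Far contacts made up a smaller share of the cis contacts of the proximal part in knockout cells. Among chromosome 1 pairs at least 20 kb apart with the lower end in the proximal part, 19.6% (interval 19.52% to 19.61%) of 3044443 wild-type pairs and 16.1% (16.02% to 16.11%) of 2351466 knockout pairs reached into the distal part, a ratio of 0.821. The 4 strand orientations of far pairs held 24.9% to 25.1% each in wild-type cells and 24.8% to 25.1% in knockout cells. A mapping quality of at least 30 on both sides was found for 85.8% and 84.6% of far pairs.

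The deficit was not spread evenly over distance. After scaling to cis pairs, knockout over wild-type stood at 1.07 (1.05 to 1.09) for ends 2 to 10 Mb apart and 1.17 (1.15 to 1.19) at 10 to 20 Mb. It was 1.1 at 20 to 30 Mb, 0.989 at 30 to 40 Mb, 0.905 at 40 to 50 Mb and 0.706 at 70 to 80 Mb. From 80 Mb on it stayed between 0.595 and 0.658 up to 190 Mb. Relative to its cis pairs of 20 kb or more, the knockout library therefore held more contacts across the border up to about 30 Mb. Beyond about 40 Mb it held fewer, and past 80 Mb the deficit no longer grew with distance. In unscaled counts it held fewer pairs at every distance.

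Set against the density of trans pairs of the same lower ends (11.2 pairs per Mb2 in wild-type cells and 8.27 in knockout cells), the far contacts at 90 to 100 Mb were 4.26 times the trans density in wild-type cells and 2.85 times in knockout cells. At 150 to 160 Mb the values were 1.53 and 1.00. At 180 to 190 Mb, where the ends of the chromosome meet, they were 1.27 (1.19 to 1.35) and 0.790 (0.721 to 0.863). The wild-type library thus stayed above this density at every distance, and the knockout library reached it near 150 Mb and lay below it farther out. The largest distances involve only the lower ends nearest the centromere, whose own trans density was not computed. Whether far contacts there lay below the trans level of those ends was not tested. Chromosomes 6 and 8 were left out of the trans density because their share of partners differed between the libraries. With all autosomes the knockout density was 8.64.

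**Figure D1:**
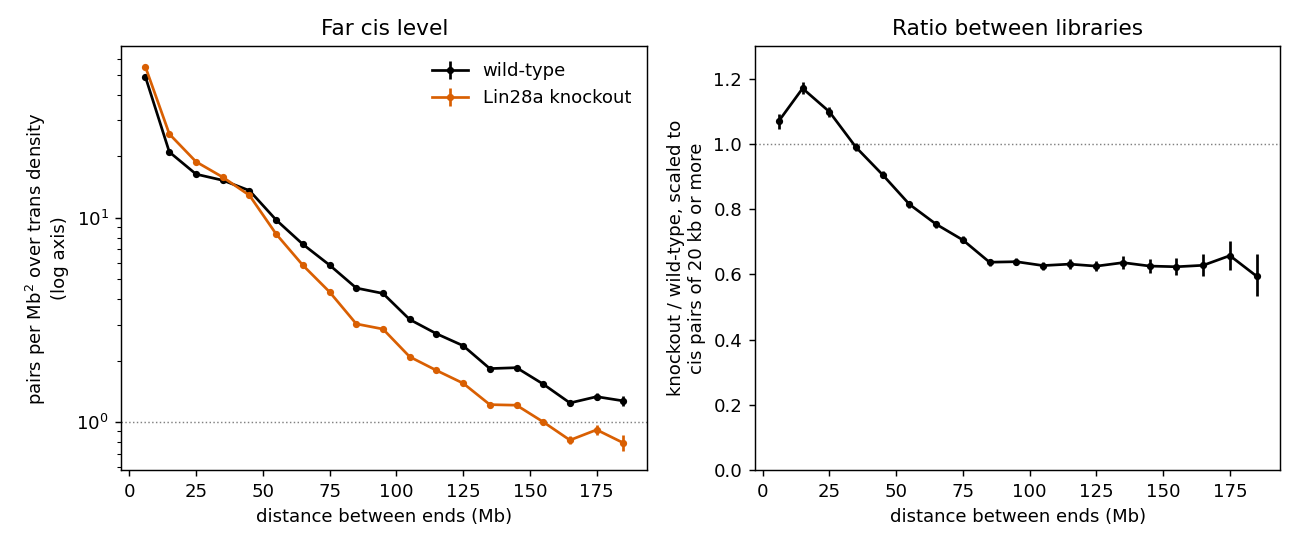
Left, far cis pairs per Mb2 divided by the trans density (log axis) against the distance between ends in Mb, for the wild-type and *Lin28a* knockout libraries. Right, the ratio of the libraries scaled to cis pairs of 20 kb or more. Bars are 95% counting intervals. The knockout library lies above the wild-type library at 10 to 20 Mb (ratio 1.17) and on a plateau between 0.595 and 0.658 from 80 Mb on.

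To compare distal bins at equal distance, the knockout pairs of each bin were divided by the number expected if every one of its bin pairs had the ratio between libraries found over all far pairs at that distance. The ratio at equal distance is then 1 for a bin that follows the shared distance law. A bin was called higher at a ratio of 1.1 or more and lower at 1/1.1 or less, with an interval that did not hold 1. The level of a bin is its number of pairs over the mean of its library at the same distances. Since upper position is lower position plus distance, slow trends along the distal part cannot be told apart from trends along distance or lower position, whereas local peaks can. Ratios next to the border and at the far end of the chromosome are drawn to 1, since few bin pairs set the shortest and the longest distances.

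Of the 104 distal bins 22 were higher (21.2%) and 15 lower (14.4%) in knockout cells. The bins held 1223 to 18964 wild-type pairs (median 4241) and 566 to 14014 knockout pairs (median 2399). All 22 higher bins lay from 131 to 192 Mb and all 15 lower bins from 112 to 148 Mb. Without account of distance none of these 22 bins was higher. The track of 104 ratios without it had a correlation of 0.259 with the track at equal distance, so the calls depend on the distance reference. In the larger sequencing run alone every one of the 37 bins lay on the same side of 1. That run holds most of the pairs that set the calls, so this is no separate support for them. In the smaller run alone 18 of the 22 higher and 12 of the 15 lower bins did, and the 2 runs correlated with r = 0.543 and rho = 0.544 over the 104 bins, which is a description of bins that share libraries.

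**Figure D2:**
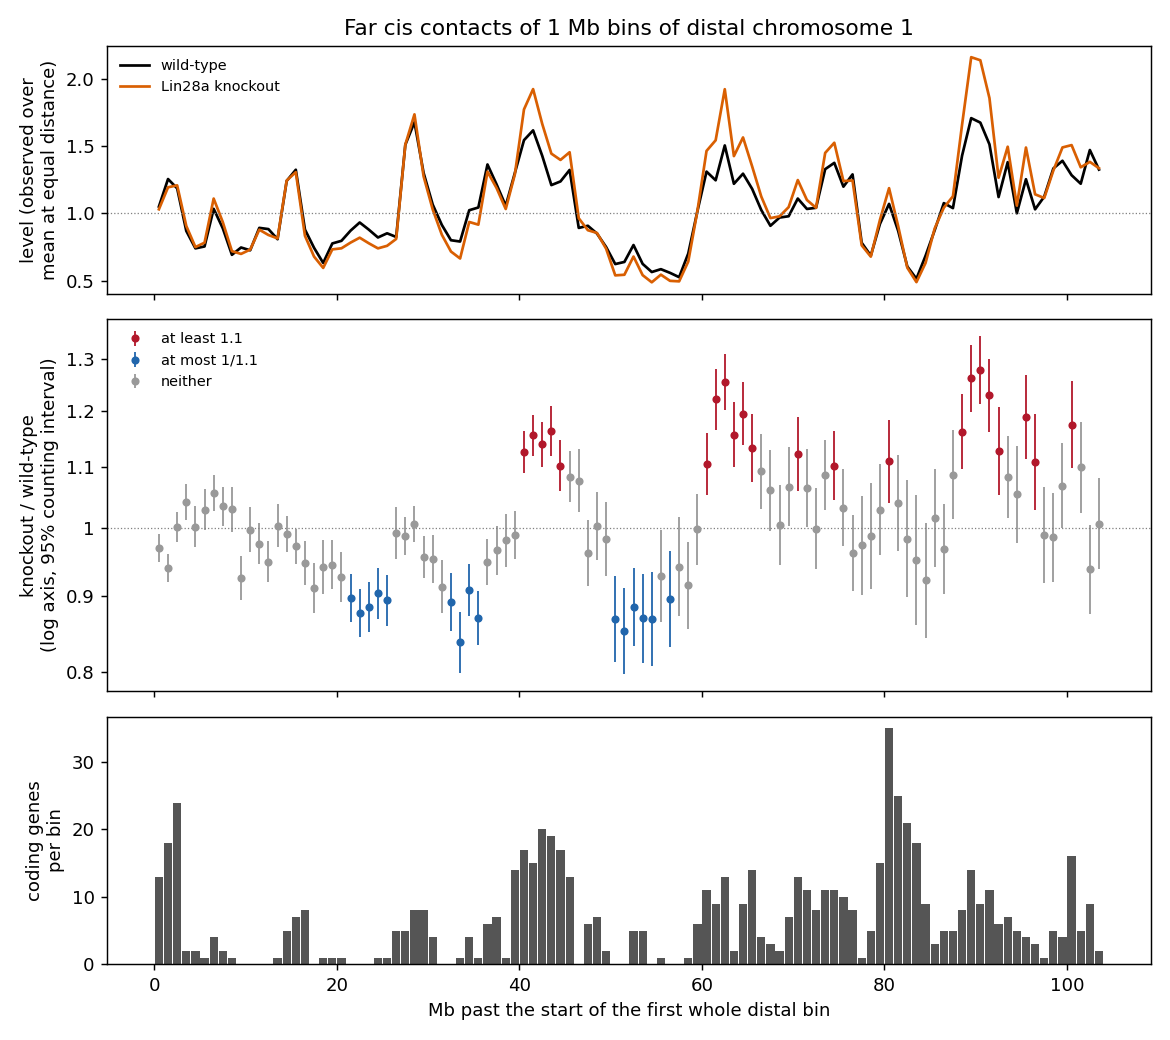
Top, level of each 1 Mb distal bin (observed pairs over the mean at equal distance) in the wild-type and *Lin28a* knockout libraries. Middle, ratio of knockout to wild-type at equal distance with 95% counting intervals (log axis). Bottom, protein-coding genes per bin. The horizontal axis counts Mb from the start of the first whole distal bin. Higher bins (22) hold a median of 12 genes and lower bins (15) a median of 0, with exceptions such as the higher bin at 154 Mb with 2 genes, and both level tracks peak over the same stretches.

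The highest ratios came from the stretch from 179 to 184 Mb, in which 5 bins with 48 coding genes had a joint ratio of 1.22 (1.19 to 1.25). The bin at 181 Mb stood highest, with 3629 wild-type and 2261 knockout pairs, levels of 1.68 and 2.14, and a ratio of 1.28 (1.21 to 1.35). It holds *Nvl*, which encodes an ATPase of ribosome assembly, *Lbr*, the lamin B receptor that tethers heterochromatin to the nuclear envelope, *Dnah14*, an axonemal dynein heavy chain, and *Cnih3*, an accessory protein of glutamate receptors. The bin at 180 Mb had 3755 and 2320 pairs, levels of 1.71 and 2.16 and a ratio of 1.26 (1.2 to 1.33). It holds *Parp1*, which encodes the polymerase that marks DNA breaks with poly(ADP-ribose), the Nodal inhibitors *Lefty1* and *Lefty2*, and *Itpkb*, an inositol phosphate kinase. The bin at 182 Mb, with *Enah*, *Susd4*, *Capn8* and *Trp53bp2*, had 3223 and 1931 pairs and a ratio of 1.23 (1.16 to 1.3). These bins were among the strongest far partners in wild-type cells already and stood out further in knockout cells at equal distance. Without account of distance the bins at 180, 181 and 182 Mb had ratios of 0.979, 0.987 and 0.95, so these calls rest on the distance reference.

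The stretch from 151 to 157 Mb had a joint ratio of 1.18 (1.16 to 1.2) over 6 bins with 58 genes. Its highest bin, at 153 Mb, had 5230 and 3417 pairs, levels of 1.51 and 1.92 and a ratio of 1.25 (1.2 to 1.31), and it holds *Lamc1*, a laminin chain gene, *Rgsl1* and *Teddm2*. The bin at 152 Mb, with *Nmnat2*, an enzyme of NAD synthesis in axons, *Colgalt2*, *Rgl1* and *1700025G04Rik*, had 4408 and 2801 pairs and a ratio of 1.22 (1.17 to 1.28). Without account of distance the bins at 152 and 153 Mb had ratios of 1.01 (0.960 to 1.06) and 1.04 (0.991 to 1.08), and neither was called. The stretch from 131 to 136 Mb, the most gene-rich of the 3 with 88 genes in 5 bins, had 38429 and 25662 pairs and a ratio of 1.14 (1.12 to 1.16). Shorter runs of higher bins lay at 161 to 162, 165 to 166, 171 to 172, 186 to 188 and 191 to 192 Mb, with ratios of 1.1 to 1.17.

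The lower bins formed 3 stretches and 1 single bin. The stretch from 141 to 146 Mb, with 10 coding genes in 5 bins, had 13752 wild-type and 6404 knockout pairs, levels of 0.643 and 0.557 and a ratio of 0.870 (0.844 to 0.896). Of its bins, those at 141, 142 and 145 Mb hold no coding gene and had ratios of 0.868, 0.853 and 0.869. The bin at 144 Mb, with the regulators of G protein signalling *Rgs1*, *Rgs13*, *Rgs18* and *Rgs21*, had 2611 and 1206 pairs and a ratio of 0.869 (0.811 to 0.931). The stretch from 112 to 117 Mb (2 genes) had a ratio of 0.891 (0.876 to 0.906), and that from 123 to 127 Mb (6 genes) 0.879 (0.860 to 0.898). The lowest bin of all, at 124 Mb, holds the start of *Dpp10*, an accessory subunit of potassium channels, most of whose body lies in the bin before it. It had 5204 and 2656 pairs, levels of 0.790 and 0.664 and a ratio of 0.838 (0.799 to 0.878). The single bin at 147 Mb, with no coding gene, had a ratio of 0.896 (0.831 to 0.966).

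Neighbouring blocks of 10 Mb differed on both sides of 140 to 150 Mb. The block from 130 to 140 Mb, with 12.8 coding genes per Mb, had 65283 wild-type and 41205 knockout pairs and a ratio of 1.09 (1.08 to 1.11). The block from 140 to 150 Mb, with 1.40 genes per Mb, had 26342 and 12651 pairs and a ratio of 0.902 (0.883 to 0.921). The blocks from 150 to 160 and from 180 to 190 Mb had ratios of 1.13 (1.12 to 1.15) and 1.15 (1.13 to 1.17), with 7.30 and 6.5 genes per Mb. The block with the most genes, 170 to 180 Mb with 14.4 per Mb, had a ratio of 1.04 (1.02 to 1.07). The blocks from 100 to 110, 110 to 120 and 120 to 130 Mb, with 2.20, 2.20 and 3.20 genes per Mb, had ratios of 0.965, 0.939 and 0.928. The blocks from 91 to 100, 160 to 170 and 190 to 195 Mb, with 7.44, 8.50 and 7.20 genes per Mb, had ratios of 1.00, 1.05 and 1.05. With pairs at least 50 Mb apart alone, the block from 91 to 100 Mb stood at 0.941 (0.922 to 0.960). The 4 blocks with at most 3.20 genes per Mb had ratios below 1, and among the other 7 the ratio did not follow the order of gene density.

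Split by the block of the lower end as well, 17 of 99 block pairs were higher (17.2%) and 27 lower (27.3%). With lower ends past 50 Mb, 15 of 44 block pairs were higher and 1 was lower. With lower ends before 30 Mb, 1 of 33 was higher and 18 were lower. The block from 150 to 160 Mb was higher with 4 of 4 lower blocks past 50 Mb and lower with that from 10 to 20 Mb (0.856). The block from 180 to 190 Mb was higher with 4 of the 4 lower blocks past 50 Mb and with 6 of all 9. The block from 130 to 140 Mb was higher with 3 and lower with 2 of all 9. The blocks from 110 to 120 and from 120 to 130 Mb each had a ratio under 1 with all 9 lower blocks. The lowest values came from lower ends before 30 Mb with upper ends before 130 Mb, with a ratio of 0.799 (0.785 to 0.814). These were 41746 wild-type and 16772 knockout pairs, 3.54 and 1.93 times the trans density of all lower ends. The outermost contacts, of lower ends before 20 Mb with the last 20 whole bins, set most of their own distance reference, so no ratio is read from them. They numbered 5076 wild-type and 2443 knockout pairs, 1.33 and 0.869 times the trans density of all lower ends.

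Seen from the lower end, the ratio at equal distance was 0.829 for the block from 3 to 10 Mb, 0.867 for both blocks from 10 to 30 Mb, 0.953 and 0.955 for those from 30 to 50 Mb, and 1.02 to 1.04 for the 4 blocks from 50 to 90 Mb. Over 87 lower bins the log2 ratio followed position with r = 0.809 and rho = 0.804. Lower ends in the first 30 Mb of the chromosome thus had ratios below 1 at equal distance. This is a slow trend, which cannot be told apart from one along distance or upper position. With the lower ends of the first 30 Mb left out, a setting chosen after seeing the data, 14 distal bins were higher in place of 22 and 17 lower in place of 15. Of the 66 block pairs that remain, 8 were higher in place of 16 and 10 lower in place of 9, so the counts of higher bins and block pairs depend on whether the first 30 Mb are used. The track of 104 ratios without them had a correlation of 0.944 with that of all lower ends.

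**Figure D3:**
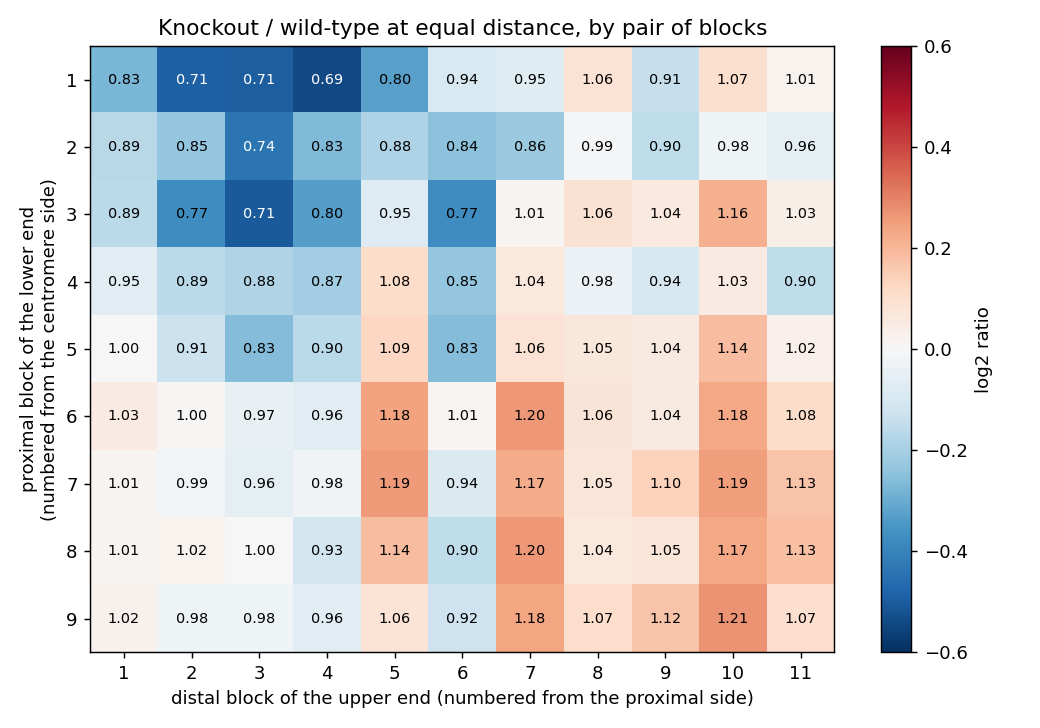
Ratio of knockout to wild-type at equal distance for each pair of a proximal block (rows, numbered from the centromere side, the first of 7 Mb) and a distal block (columns, numbered from the proximal side, the first of 9 Mb and the last of 5 Mb, all others 10 Mb). Colour gives the log2 ratio. Rows 1 to 3 are mostly below 1 and rows 6 to 9 mostly above 1. Column 10 stands above its neighbours in every row, and columns 5 and 7 do so in every row after row 3. In rows 1 to 3 column 7 stands below the column after it, and in row 1 column 5 stands below column 6.

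Gene content was the property of the bins set against the ratio. Genes were counted by their start, so a bin with none can be covered by a gene body. The bins at 100 and 123 Mb, for example, hold 485942 and 678530 bases in coding genes. The 16 distal bins with no coding gene start had a joint ratio of 0.929 (0.919 to 0.939), with 0 higher and 8 lower. Bins with 1 to 2 genes (22 bins) had 0.980, with 3 to 5 genes (20 bins) 1.00, and with 6 to 10 genes (21 bins) 1.01. The 21 bins with 11 to 20 genes had 1.06 (1.05 to 1.07), with 13 higher and 0 lower. The 4 bins with 21 to 35 genes fell out of this order with 1.01 (0.992 to 1.03). Over all 104 bins the log2 ratio correlated with gene count at r = 0.476 and rho = 0.567. The r was 0.348 in the smaller run alone and 0.0556 without account of distance. Other properties of the sequence moved with it too. The correlation was r = 0.604 and rho = 0.597 with GC content, r = -0.522 and rho = -0.535 with the repeat-masked share, and r = -0.428 and rho = -0.434 with the number of GATC sites, at which the deposited fragments are cut. With the start position of the bin the correlation was r = 0.423 and rho = 0.415. The median GC content was 44.1% in higher bins, 41.2% in bins not called and 38.0% in lower bins. The part of each of these in the ratio was not tested, and neighbouring bins share lower ends and libraries, so no p-value is given.

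A gene-dense stretch that did not follow the trend lay at 173 to 175 Mb. Its 2 bins hold 39 coding genes, most of them olfactory receptors or interferon-inducible genes such as *Aim2*, *Ifi203* and *Ifi204*, which encode sensors of cytosolic DNA and their relatives. The bin at 173 Mb had 1462 and 700 pairs, levels of 0.605 and 0.595 and a ratio of 0.984 (0.898 to 1.08). The bin at 174 Mb had 1223 and 566 pairs, levels of 0.513 and 0.488, the lowest wild-type level of the 104 bins, and a ratio of 0.953 (0.861 to 1.05). These bins had the gene count of a raised bin and the far contacts of a gene-poor one in both libraries. Other gene-dense bins not called lay next to the border, at 91, 92 and 93 Mb, with 13, 18 and 24 genes. Their wild-type levels were 1.05, 1.26 and 1.19, unlike those at 173 to 175 Mb, and their ratios 0.970, 0.940 and 1.00. Ratios next to the border are drawn to 1. The level in wild-type cells, which enters the ratio itself, exceeded 1 in 22 of 22 higher bins, in 2 of 15 lower bins and in 56 of all 104. The spread of levels was wider in the knockout library (SD of log2 level 0.524 against 0.419 over 104 bins), which also has fewer pairs per bin.

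**Figure D4:**
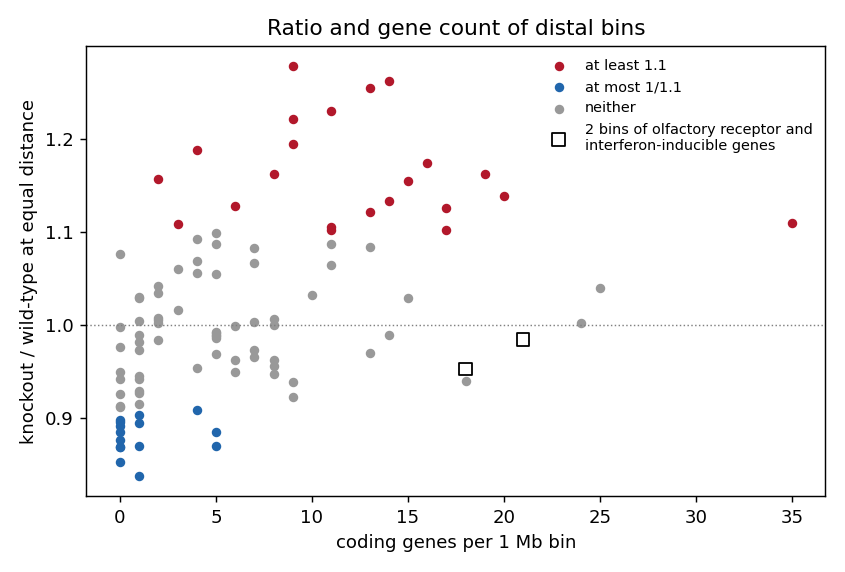
Ratio of knockout to wild-type at equal distance against the number of protein-coding genes for 104 distal bins, with bins called higher (22) or lower (15) in colour. Squares mark the 2 bins from 173 to 175 Mb, with ratios of 0.984 and 0.953. Lower bins hold at most 5 genes, and the higher bins hold 2 to 35.

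Partner choice by gene content was compared next. Bins of each side were classed by gene count as rich (top 25%) or poor (bottom 25%), which gave 22 rich and 24 poor lower bins and 26 rich and 31 poor upper bins. Pairs of rich with rich bins had levels of 1.63 (1.62 to 1.64) in wild-type cells and 1.74 (1.72 to 1.75) in knockout cells. Pairs of a poor lower with a rich upper bin had 0.846 and 0.906. Pairs with a poor upper bin had 0.743 and 0.715 where the lower bin was rich, and 0.799 and 0.761 where it was poor. As a class, gene-rich distal bins thus stood 1.07 times higher in knockout cells with rich and with poor partners alike, and gene-poor distal bins stood lower with both. Levels are relative to the mean of each library, so a rise in some bins entails a fall in others. The 2 directions are not separate findings.

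The preference of like for like, as the log2 odds of these 4 classes, was 1.05 (1.02 to 1.08) in wild-type cells and 1.03 (0.993 to 1.06) in knockout cells. The difference of -0.02 (-0.07 to 0.02) holds 0, and it turned to 0.0831 (0.03 to 0.14) where bins were classed by bases in coding genes, so no direction is given. Bin by bin, the preference for gene-rich over gene-poor partners was higher in knockout cells in 4 of 104 distal bins (3.85%) and lower in 5 (4.81%). The preference correlated between libraries at r = 0.974. The 4 bins lay at 109, 113, 155 and 181 Mb. Of these, the bins at 155 and 181 Mb were called higher at equal distance and that at 113 Mb lower. The 5 bins, at 103, 120, 130, 164 and 188 Mb, were not called at equal distance.

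**Figure D5:**
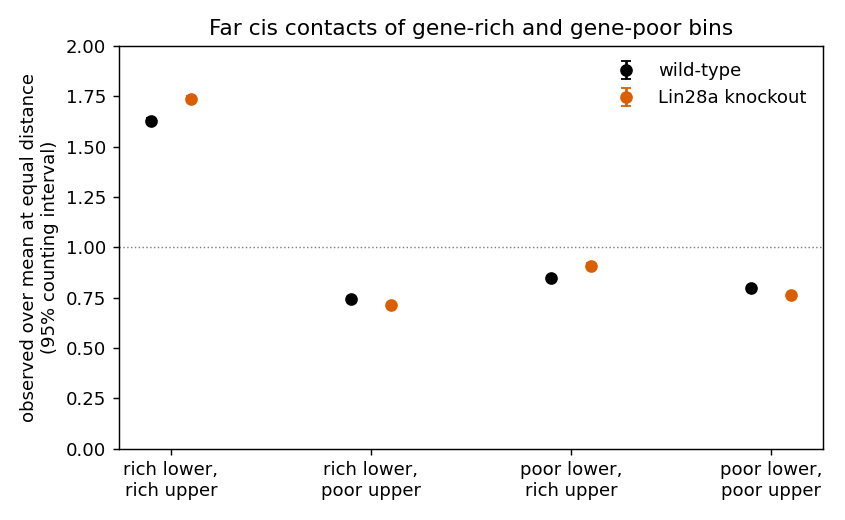
Far cis pairs over the mean at equal distance for gene-rich (top 25%) and gene-poor (bottom 25%) lower and upper bins, in the wild-type and *Lin28a* knockout libraries. Error bars are 95% counting intervals and are smaller than the points. Pairs of rich bins reach 1.63 and 1.74, and both classes with a rich upper bin are higher in knockout cells.

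Lists of genes were followed through the bins that hold them, so that genes of 1 bin share its value. Beside them, the median ratio over all 104 bins was 0.998, with 22 bins higher (21.2%) and 15 lower (14.4%). Of the 21 bins with 11 to 20 genes, 13 were higher. The 10 naive pluripotency and ES cell regulators lay in 7 bins with a median ratio of 1.09 and a median of 11 coding genes. Of these bins 3 were higher and 0 lower. The higher ones were the bin of *Parp1* and the *Lefty* genes, that of *Kdm5b*, a histone H3K4 demethylase, at 1.16, and that of *Rnf2*, a Polycomb ubiquitin ligase, at 1.11. *Tfcp2l1*, a transcription factor of naive cells, lay in a bin with 11420 and 7302 pairs, a level of 1.51 in both libraries and a ratio of 0.988 (0.959 to 1.02). *Zfp281* and *Nr5a2*, which encode transcription factors of ES cells, share a bin at 1.08, which was not called. The 5 genes of the p53 pathway lay in 5 bins with a median of 1.14, of which 4 were higher. These held *Mdm4*, the inhibitor of p53, with 7777 and 5185 pairs and a ratio of 1.14 (1.1 to 1.18), the p53 targets *Btg2* (1.16) and *Phlda3* (1.1), and the stress factor *Atf3* (1.17), while the bin of the ubiquitin ligase gene *Cop1* had 1.01. The bins of this list held a median of 17 coding genes, and those of *Mdm4*, *Btg2* and *Phlda3* lie side by side in the raised stretch from 131 to 136 Mb.

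The 6 genes listed for the nuclear envelope and pore lay in 4 bins with a median of 8.5 coding genes and a median ratio of 1.15. Of these bins 3 were higher, beside 21.2% of all 104. Apart from *Lbr* and *Nvl*, which is no envelope protein, the higher ones held *Ahctf1*, which starts pore assembly on chromatin (1.16). They also held *Tor1aip1* with *Tor1aip2*, partners of torsin in the nuclear envelope and endoplasmic reticulum (1.13). The bin of *Tpr*, the filament of the nuclear basket, had 0.999. The 13 developmental transcription factors, genes that Polycomb holds silent in ES cells in many cases, lay in 13 bins with a median of 1.01, of which 4 were higher, among them those of *Lhx4* (1.19) and *Sox13* (1.14), and 0 lower. The bins of *Gli2* and *En1* had ratios of 1.01 and 0.956, with levels of 1.68 and 1.3 in wild-type cells.

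Of the 28 immune genes 27 lay in 12 bins with a median of 0.998, of which 3 were higher and 1 was lower. The higher ones held *Il10* (1.13), *Fasl* (1.12) and the *Slamf* and Fc receptor genes at 171 Mb, where 35 coding genes share a ratio of 1.11 (1.04 to 1.18), and the lower one held *Rgs1*. The 11 serpin genes lay in 2 bins with ratios of 0.973 and 0.947. The 27 olfactory receptors lay in 4 bins with a median of 0.968, none of them called. The 16 long neuronal genes lay in 15 bins with a median of 0.989, of which 1 was higher (*Nav1*, 1.1) and 2 lower, those of *Dpp10* and of *Cntnap5a* (0.904), which encodes a neurexin-family protein. The lists are small, differ in gene density and share bins (*Btg2* with *Kdm5b*, *Mdm4* with *Sox13*). Over all 104 bins 21.2% were higher and 14.4% lower, and of the 21 bins with 11 to 20 genes 13 were higher.

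Whether distal bins departed more than proximal ones was examined at matched distance. Over pairs 20 Mb or more apart within the proximal part, 1 of 57 bins was higher (1.75%) and 3 were lower (5.26%). At 20 to 60 Mb, a span that both parts cover, 3 of 48 distal bins were higher and 1 was lower, the SD of the log2 ratio was 0.09 in the distal bins and 0.08 in the 57 proximal bins, and the ratios ran from 0.876 to 1.14 and from 0.823 to 1.11. The spread was therefore close in both at these distances. The 48 distal bins lie between 91 and 139 Mb, so most of the higher bins do not enter, and distance and position cannot be told apart here. At 20 to 60 Mb the correlation of the log2 ratio with gene count was 0.331 over the distal bins and -0.033 over the proximal bins. As lower ends of all far pairs, the 87 proximal bins had r = 0.399 and rho = 0.395 with gene count.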

How the data were processed

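Hi-C pairs were deposited as lists with 1 line per valid pair, made by the authors with CASAVA 1.8, Bowtie2 and HiC-Pro on mm10, per the submitters' processing notes. The study's methods were not found to cover this assay. Each deposited line gives both positions and, per the layout, a mapping quality score for each end. The lists held here are partial (5793079 and 11430967 lines). Pairs were counted in 1 Mb bins without balancing, which the missing distal part does not allow. Ratios at equal distance used all far pairs at each 1 Mb distance as reference. Intervals at 95% are exact (Clopper-Pearson for shares, Poisson for counts, binomial split for ratios) and log-normal for odds. They cover counting error only, and the expected counts were taken as fixed. The steps were tested on simulated data. Copy number along the distal part was not analysed here. Genes were protein-coding genes of GENCODE M21, binned by start. Bins named were the 5 highest and 5 lowest and those with a list gene, with at most 4 genes each, list genes first and then the longest. A gene in a named bin is not reported here. Runs of called bins, the 2 bins from 173 to 175 Mb, *Cdc73* and *Fcer1a* were named after their values were seen. Members, lists and tests were chosen with earlier results of these data known. Alternatives covered the denominator, mapping quality, runs, distances, lower ends, bin width, call threshold and gene classes. Python 3.11.15, numpy 2.4.6, scipy 1.17.1, pandas 2.3.3 and matplotlib 3.10.9 were used.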

Additional observations from a re-analysis of the deposited data

How the results depend on the processing

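No paired analysis was possible because each group is 1 library and the labels give no replicate numbers.

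The share of far pairs was 17.3% and 14.3% of all cis pairs (ratio 0.829), 10.4% and 8.59% of cis and trans pairs (0.829), and 19.3% and 15.9% at mapping quality 30 or more. In the smaller run alone the knockout share was 16.2% and the ratio 0.826. With all other autosomes as reference, the knockout level over trans at 100 Mb or more was 1.42 in place of 1.48.

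The number of distal bins higher and lower was 8 and 5 in the smaller run alone, 10 and 6 with 2 Mb bins (51 bins), 42 and 31 with 500 kb bins, 14 and 53 without account of distance, and 5 and 0 at a fold of 1.2. With pairs at least 50 Mb apart 29 bins were lower. Relative to bins within 10 Mb 13 were higher, and without lower ends of the first 30 Mb 14 were (both chosen after seeing the data). Block pairs higher and lower were 7 and 7 in the smaller run, and 8 and 10 of the 66 that remain without the first 30 Mb, against 16 and 9 of these 66 with it. Without account of distance the bins at 180, 181 and 182 Mb stood at 0.979, 0.987 and 0.95, and the correlation of the ratio with gene count was 0.0556 (0.348 in the smaller run). The bin at 141 Mb stood at 1.08 in the smaller run, where its interval held 1 (0.803 to 1.43).

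The log2 odds by gene content were 1.17 and 1.17 with the distance reference from all cis pairs, 1.16 and 1.15 at 50 Mb or more, 1.1 and 1.15 without the first 30 Mb, 1.65 and 1.75 with the top and bottom 10%, 0.68 and 0.76 with bases in coding genes, and 1.22 and 1.18 with trans density taken off. In the wild-type library they were 1.01 in the smaller run and 1.02 without lower ends of the last 10 Mb. The difference between libraries was 0.0353 without the last 10 Mb, 0.0490 without the first 30 Mb, 0.0989 with the top and bottom 10% and 0.0831 with bases in coding genes.

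Single libraries leave the spread between cultures unknown. Far pairs per bin fell with distance, with as few as 566 knockout pairs in a bin, so a ratio within about 1.1 of 1 was often not detectable in the outer bins. The wild-type list held here ends at 90862049, so pairs within the distal part entered no comparison.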
